A study of Mus musculus with 6 samples.

Results

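The genes of the cyclin E, CDK2 and E2F step at G1/S were followed in cells sorted as vascular endothelial cells (VECs) from the mouse retina, with and without Bmal1, an activator of the circadian clock. They are 10 of the 55487 genes in the deposited table, taken by symbol: the cyclins Ccne1 and Ccne2, the kinase Cdk2, the phosphatase Cdc25a, the F-box protein Skp2, the activator factors E2f1, E2f2 and E2f3, and the pocket proteins Rbl1 and Rbl2. VECs were sorted at P7.5 from 3 Bmal1;CKO (Bmal1 FL/FL;tdTomato FL/+;Pdgf-icreER) and from 3 control (tdTomato FL/+;Pdgf-icreER) replicates, each sequenced as 1 library. Both genotypes carried the tdTomato reporter and the Pdgf-icreER transgene, and pups of both were given tamoxifen over P0.5 to P2.5. The paper states that retinas were collected at noon, so the comparison covers 1 time of day. The floxed Bmal1 alleles were present in the mutants alone, so the allele and its recombination cannot be told apart by this comparison. The transgene also expresses GFP, and the gate kept cells positive for GFP and for tdTomato, which reports recombination of the reporter and not of Bmal1. Libraries keep the numbers of the table, where 1, 2 and 3 are control and 4, 5 and 6 are Bmal1;CKO. Nothing in the labels says whether replicates were single animals or pools, so p-values measure the spread between these libraries.

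At the end of G1, cyclin D kinases begin to phosphorylate the pocket proteins, which releases E2F factors from repression. The freed activator E2Fs switch on genes for DNA replication and also the cyclin E genes, whose products bind CDK2 and phosphorylate the pocket proteins further, so the step feeds itself. CDC25A removes inhibitory phosphates from CDK2, and SKP2 is the substrate receptor of an SCF ubiquitin ligase that marks the CDK inhibitor p27 for destruction. The retinal vasculature of the mouse grows after birth, with dividing VECs behind the sprouting front, and the study asked how Bmal1 bears on VEC proliferation.

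The libraries held 71145068 to 104017800 reads on genes, and the deposited values, called normalized counts here, are reads divided by a size factor of the library between 0.711 and 1.40. Bmal1 itself, listed as Arntl, had 1700, 3489 and 2928 normalized counts in control libraries 1 to 3 and 1779, 2747 and 2415 in Bmal1;CKO libraries 4 to 6. Its log2 fold change was -0.19 (standard error 0.36) with overlapping groups, so the whole-gene value does not separate the genotypes. The deleted exon was not counted apart from the gene. By digital PCR on sorted endothelial cells of these genotypes, the paper reports significantly fewer Bmal1 copies in the mutant. All 14 endothelial markers had at least 10 reads in every library, with none at 0. Markers of other retinal cells were present too: the summed normalized counts of 10 microglia and macrophage markers (1457300 to 4313200) exceeded those of the endothelial markers (118350 to 379020) in every library. So did those of 9 rod markers (271560 to 513050) and of 7 Muller glia markers (4015900 to 16621000). By the median gene of each list, the microglia and rod markers were again above the endothelial markers in every library. The Muller glia markers were not: their median gene had 5331, 6393 and 7482 normalized counts in libraries 1, 3 and 6. The endothelial median gene had 9109, 8614 and 9473 there, so most of the Muller glia sum came from a few of its genes. The values given here are therefore those of the sorted material and cannot be assigned to VECs alone. Control library 1 stood apart. E2f6, a repressor of the E2F family, had 13 reads in it and 1987 to 5211 in the others, and Cdc25c and Chek1 had 0 reads in it alone. In bulk RNA, fewer cells of a type and less RNA per cell cannot be told apart.

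All positions are on GRCm38. Ccne1 is at chr7:38097984-38107534 on the reverse strand, and Ccne2 is at chr4:11191351-11204779 on the forward strand. Cdk2 is at chr10:128697939-128705031 (reverse), Cdc25a at chr9:109875579-109893895 (forward) and Skp2 at chr15:9111985-9155425 (reverse). E2f1 is at chr2:154559407-154569892 (reverse), E2f2 at chr4:136172394-136196057 (forward) and E2f3 at chr13:29906575-29986063 (reverse). Rbl1 is at chr2:157145893-157204534 (reverse) and Rbl2 at chr8:91070057-91123844 (forward). Overlaps with exons of a gene on the opposite strand matter for the counts, because the use of strand in the counting was not stated: 609 exon bases of Ccne2 with Ints8, 693 of Rbl2 with Aktip and 892 with Gm45464, and 34 of Cdk2 with Pmel.

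Promoters of the genes were searched for the letters that E2F and BMAL1 are known to read. RefSeq promoters of GRCm38.p6, from 250 bases before to 50 after a start, were available for 9 of the 10 genes, as 12 promoters, and that of Ccne2 was not searched. One of the E2F sequences TTTGGCGC, TTTGCCGC, TTTCGCGC and TTTCCCGC was found on either strand in 5 of the 12, those of Rbl1, Cdc25a, Cdk2, E2f2 and E2f3, and in 744 of all 32851 promoters (2.26%). The E-box CACGTG, the sequence bound by BMAL1 with its partner CLOCK, was found in 1 of the 12, at an inner start of E2f3, and in 2349 of all promoters (7.15%). These stretches before a start are shown, with up to 20 bases on each side of the match and the match in capitals, because they carry the E2F letters or the E-box of this set. The match starts 18 bases before the Rbl1 start, 67 before that of Cdc25a, 11 before the outer start of E2f3 and 24 before its inner start. The first 3 lie outside annotated genes, and the E-box stretch lies within E2f3 but outside its annotated exons. The Cdk2 match starts 140 bases before its start, but its stretch overlaps an annotated UTR of Pmel and is not shown. The E2f2 match lies after its start and is not shown either.
Rbl1, chr2:157204535-157204572, reverse strand: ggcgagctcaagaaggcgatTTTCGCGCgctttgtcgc
Cdc25a, chr9:109875492-109875539, forward strand: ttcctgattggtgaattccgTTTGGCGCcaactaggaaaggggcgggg
E2f3, chr13:29986064-29986094, reverse strand: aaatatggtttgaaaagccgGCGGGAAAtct
E2f3 inner start, chr13:29984392-29984435, reverse strand: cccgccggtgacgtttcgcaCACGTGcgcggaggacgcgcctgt
A match is a description of the letters and not evidence that a factor was bound.

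To determine whether the G1/S step differed between genotypes, the normalized counts of the 10 genes were compared across the 6 libraries. Ccne2, a cyclin E gene, was the one member with an unadjusted p under 0.05, and it was lower in every Bmal1;CKO library than in every control library. Rbl1 also had groups that did not overlap, again lower in Bmal1;CKO, although by a margin of less than 1 normalized count. E2f1 was the member with the largest positive difference. The other members had overlapping groups, and none of the 10 reached a false discovery rate (FDR) of 0.05. Of the 10 genes, 8 had a lower and 2 a higher mean log2 value in Bmal1;CKO, beside 8889 lower and 11570 higher of all genes tested. Their median log2 fold change was -0.33, beside 0.11 over all 20459 genes tested.

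**Figure D1:**
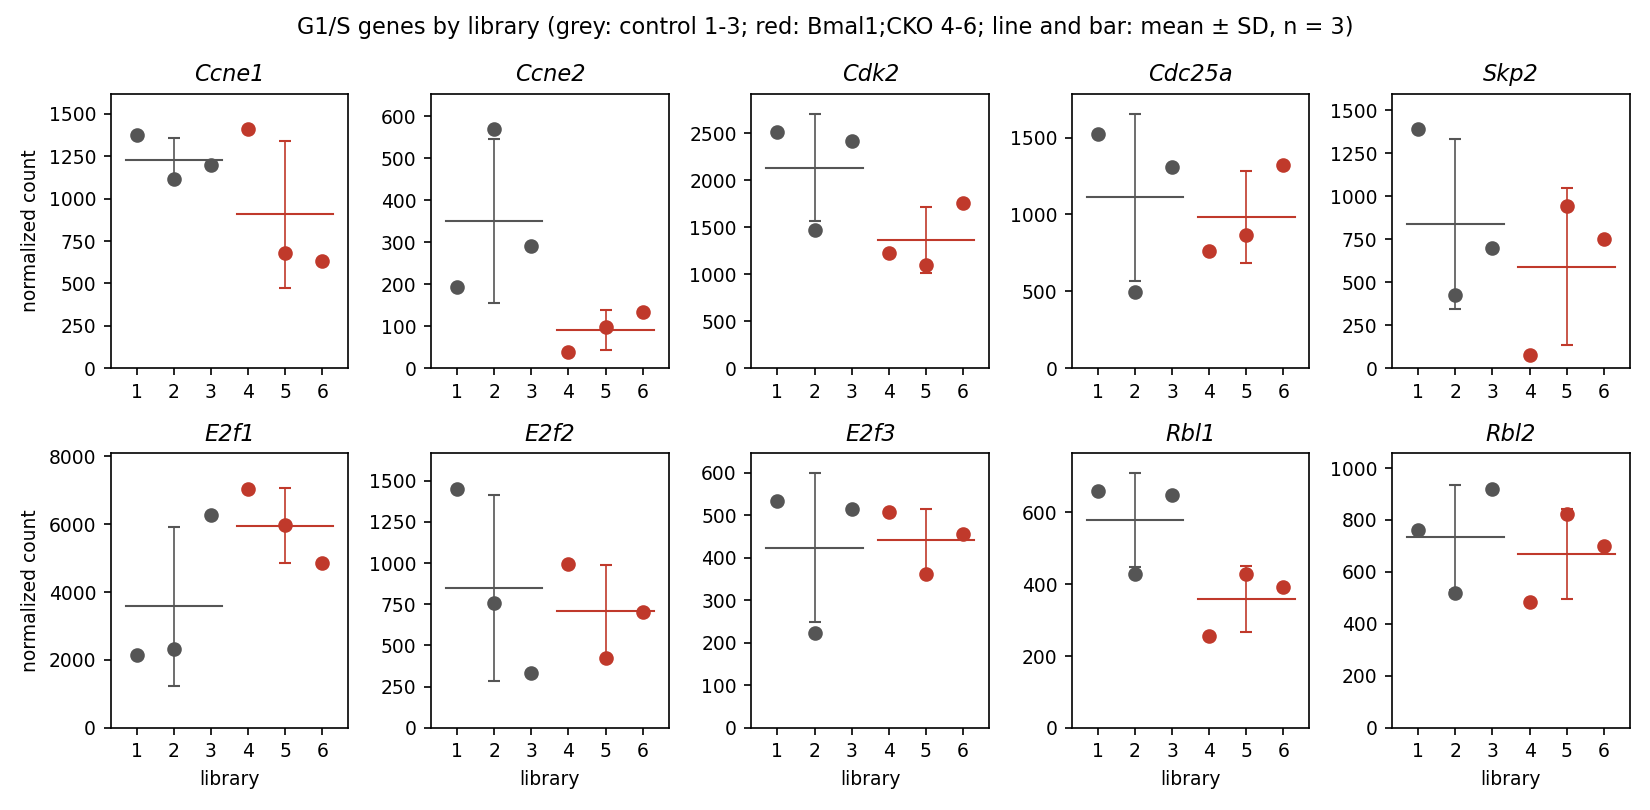
Normalized counts of the 10 genes (vertical axis, linear from 0, its own scale per gene) in each of the 6 libraries (horizontal axis), with grey points for control and red for Bmal1;CKO; horizontal lines are group means and bars the SD of 3 libraries. For Ccne2 the Bmal1;CKO libraries sit between 39.4 and 135 and the control libraries between 193 and 569, and for Skp2 library 4 sits at 75.9 apart from the rest.

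The background of these counts was as follows. In limma-trend, a linear model over all genes with Benjamini-Hochberg adjustment, 0 of 20459 genes (0%) were at FDR 0.05, while 359 (1.75%) were lower and 648 (3.17%) higher at an unadjusted p under 0.05. In edgeR with TMM scaling that split was even, with 388 lower and 389 higher. Other tests of the same genes gave 0 genes at FDR 0.05 in edgeR's quasi-likelihood test and in limma-voom and 67 in DESeq2's Wald test, with none of the 10 members among them. Groups of 3 libraries did not overlap for 929 genes (4.54%) that were lower in Bmal1;CKO and for 1354 (6.62%) that were higher. Against these shares, 1 of the 10 members was lower at an unadjusted p under 0.05 and 2 were lower without overlap. The smallest p that exact permutation of the 6 libraries can give is 0.1.

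Cyclin E is encoded by Ccne1 and Ccne2, whose products activate CDK2. Ccne2 had 193, 569 and 290 normalized counts in the control libraries and 39.4, 98.5 and 135 in the Bmal1;CKO libraries. The highest mutant library was thus below the lowest control, and the means were 351 ± 195 (SD, n = 3) and 91.0 ± 48.3 (SD, n = 3). The log2 fold change was -1.96 with a 95% interval from -3.81 to -0.11, which is 3.89-fold lower (unadjusted p = 0.0405, adjusted p = 0.883 from limma-trend). The two-sided exact permutation test gave its smallest possible p, 0.1. The lowest value, in library 4, rests on 28 reads, for which the exact Poisson 95% interval is 18.6 to 40.5 and covers counting error only. The unadjusted threshold was missed when any of 4 single libraries was left out. The log2 fold change was -1.45 without library 4 (unadjusted p = 0.118, limma-trend), -2.10 without library 5 (unadjusted p = 0.0749), -1.54 without control library 2 (unadjusted p = 0.136) and -2.02 without control library 3 (unadjusted p = 0.0705). Without control library 1, which stood apart, it was -2.32 (unadjusted p = 0.0111, limma-trend). Ints8, which shares exon bases with Ccne2, had 596, 708 and 805 normalized counts in control and 390, 797 and 727 in Bmal1;CKO, with overlapping groups and a log2 fold change of -0.20.

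Ccne1 had 1373, 1114 and 1199 normalized counts in control and 1409, 678 and 635 in Bmal1;CKO. Libraries 5 and 6 were below all controls, whereas library 4 was the highest of the 6. The log2 fold change was -0.53 with an interval from -1.49 to 0.43 (unadjusted p = 0.237, limma-trend), and without library 4 it was -0.90 (unadjusted p = 0.0580). Library 4 therefore held the highest Ccne1 and the lowest Ccne2 value. Ccne2 amounted to 14.1%, 51.1% and 24.2% of Ccne1 in the control libraries and to 2.79%, 14.5% and 21.3% in the Bmal1;CKO libraries. The log2 ratio of Ccne2 to Ccne1, each with a pseudocount of 1, was -1.94 ± 0.93 in control and -3.37 ± 1.54 in Bmal1;CKO (SD, n = 3). The groups overlapped, and the difference of -1.43 had p = 0.3 in the two-sided exact permutation test. Without library 4 that difference was -0.55.

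Cdk2 encodes the kinase that cyclin E activates. It had 2511, 1475 and 2413 normalized counts in control and 1231, 1100 and 1758 in Bmal1;CKO. Control library 2 lay within the mutant range, below library 6, and the other control libraries lay above all mutants. The means were 2133 ± 572 and 1363 ± 349 (SD, n = 3), and the log2 fold change was -0.64 with an interval from -1.45 to 0.18 (unadjusted p = 0.110, limma-trend). Without control library 2 it was -0.88 (unadjusted p = 0.0443, adjusted p = 0.844 from limma-trend). The difference kept its sign under each of the 14 alternatives. Cdc25a, whose phosphatase activates CDK2, had 1526, 497 and 1312 in control and 764, 865 and 1321 in Bmal1;CKO. All 3 mutant values lay inside the control range, and the log2 fold change was -0.06 with an interval from -1.26 to 1.13, wide enough to hold a doubling or a halving.

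Skp2 encodes the receptor of the ligase that targets p27. It had 1388, 427 and 697 normalized counts in control and 75.9, 945 and 752 in Bmal1;CKO, the widest spread of the 10 genes, with an 18.3-fold range over the libraries. Library 4, with 54 reads (exact Poisson 95% interval 40.6 to 70.5), was far below the rest, and libraries 5 and 6 lay inside the control range. The log2 fold change of -0.97, with an interval from -3.28 to 1.33, turned to 0.18 without library 4, so its direction rested on that library. With all libraries kept it was -0.49 in edgeR with TMM scaling and -0.50 in DESeq2.

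E2F1, E2F2 and E2F3 are the activators of the E2F family. E2f1 had 2140, 2313 and 6280 normalized counts in control and 7037, 5977 and 4844 in Bmal1;CKO. Control libraries 1 and 2 were below all mutants, and control library 3 lay among them. The means were 3578 ± 2342 and 5952 ± 1097 (SD, n = 3), with a log2 fold change of 0.90 and an interval from -0.11 to 1.92 (unadjusted p = 0.0740, adjusted p = 0.883 from limma-trend). Two-sided exact permutation gave p = 0.3. Without control library 3 the log2 fold change was 1.40 (unadjusted p = 0.00180, adjusted p = 0.204 from limma-trend), and without any other single library it lay between 0.63 and 1.04.

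E2f2 had 1451, 756 and 333 normalized counts in control and 993, 425 and 705 in Bmal1;CKO. The mutant values lay inside the control range, with a log2 fold change of -0.10 (interval -1.55 to 1.36). E2f3 had 534, 222 and 514 in control and 506, 361 and 455 in Bmal1;CKO, again inside the control range, with 0.15 (interval -1.10 to 1.40). The sign of each depended on single libraries, turning to 0.41 for E2f2 without control library 1 and to -0.26 for E2f3 without control library 2. The activators therefore did not share 1 pattern over the libraries: E2f1 exceeded E2f2 by 1.47-fold in control library 1 and by 18.9-fold in control library 3, and by 6.87-fold to 14.1-fold in the mutants, a pair chosen after its values were seen.

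RBL1 (p107) and RBL2 (p130) are pocket proteins that hold E2F factors in repressive complexes, RBL2 chiefly in quiescent cells as part of DREAM. Rbl1 had 659, 428.7 and 647 normalized counts in control and 255, 428.4 and 391 in Bmal1;CKO. The groups touched, with control library 2 and Bmal1;CKO library 5 almost equal. The means were 578.5 ± 130 and 358 ± 91.6 (SD, n = 3), and the log2 fold change was -0.70 with an interval from -1.81 to 0.41 (unadjusted p = 0.184, limma-trend). It ranged from -0.90 to -0.47 when 1 library at a time was left out. Rbl2 had 763, 519 and 920 in control and 484, 824 and 699 in Bmal1;CKO, overlapping throughout, and was the steadiest of the 10 genes with a 1.90-fold range. Its log2 fold change was -0.13 (interval -1.13 to 0.88). Aktip, which shares exon bases with Rbl2, had 4391 to 8060 normalized counts and a log2 fold change of -0.24.

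**Figure D2:**
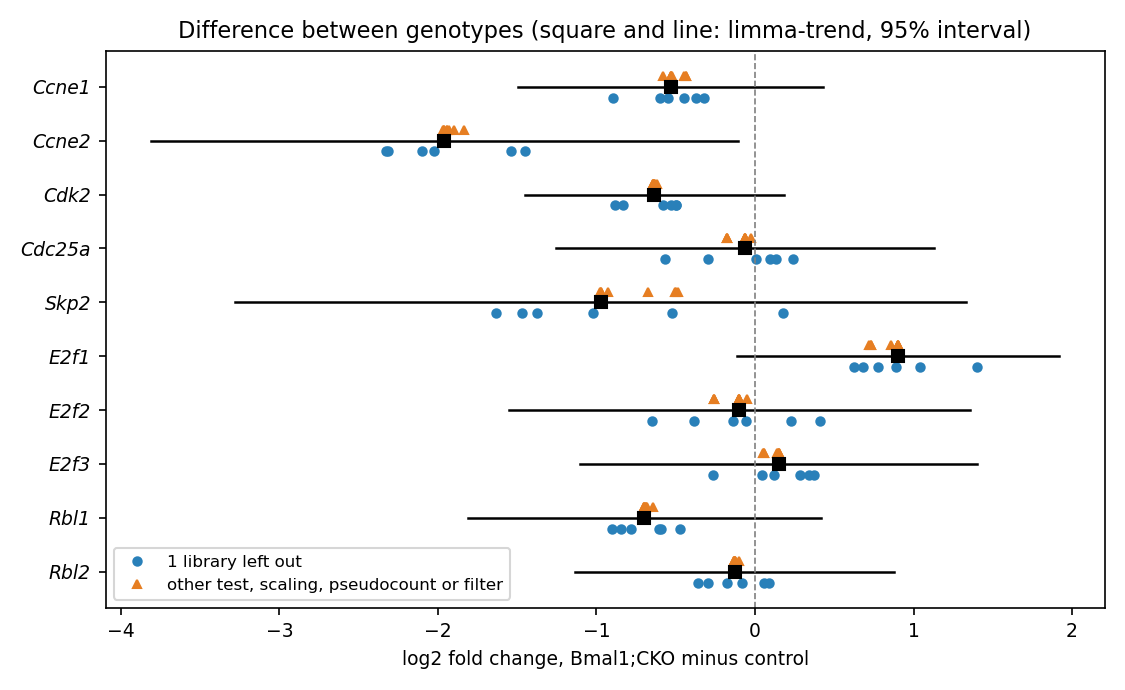
Log2 fold change of each gene, Bmal1;CKO minus control (horizontal axis), with the limma-trend value as a square and its 95% interval as a line, the values with 1 library left out as blue points and those under other tests, scalings, pseudocounts or filters as orange triangles. The interval of Ccne2 alone, from -3.81 to -0.11, does not reach 0, and the blue points spread more widely than the triangles for each gene, as for Skp2 from -1.63 to 0.18.

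Among the 10 genes, the libraries pulled in different directions. Control library 1 held the highest value of 6 of them (Cdk2, Cdc25a, E2f2, E2f3, Rbl1 and Skp2) and the lowest of E2f1. Bmal1;CKO library 4 held the lowest value of 4 (Ccne2, Rbl1, Rbl2 and Skp2) and the highest of Ccne1 and E2f1. Library 4 also had the fewest reads, 71145068, and the smallest size factor, 0.711. With library 4 left out the median log2 fold change of the 10 genes was -0.17, and with control library 2 or control library 3 left out it was -0.58 or -0.54.

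Levels were compared between genes as normalized counts per kb of annotated exon. E2f1 was the highest, with a median of 1715 per kb over the 6 libraries and a range from 678 to 2231. It was above Ccne1 in 6 of 6 libraries, with ranges that did not meet. Ccne1 followed with a median of 434 per kb, then Cdk2 with 260, E2f2 with 150 and Cdc25a with 136. The lower genes were Rbl2 (96.7), Skp2 (92.0), E2f3 (88.5), Rbl1 (71.5) and Ccne2 (47.0), all as medians per kb. Only between E2f1 and Ccne1 were neighbours in this order apart. Ccne1 exceeded Cdk2, Cdk2 exceeded E2f2 and Rbl1 exceeded Ccne2 in 5 of 6 libraries each, whereas from E2f2 down to Rbl1 each gene exceeded the next in 2 to 4 of the 6 libraries. These are levels in amplified libraries.

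**Figure D3:**
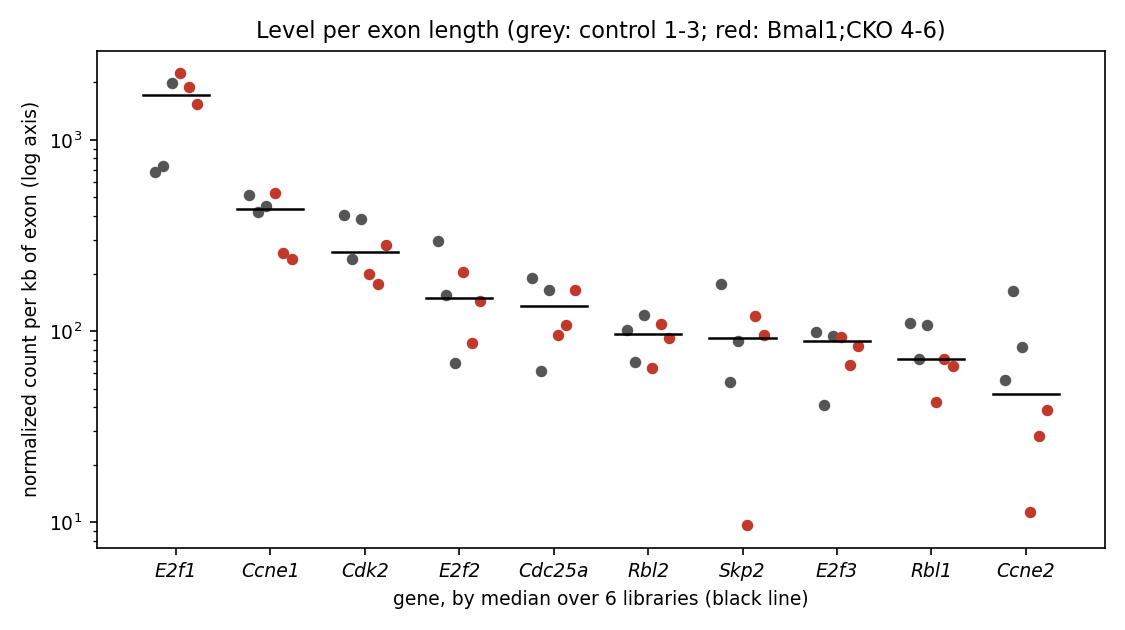
Normalized count per kb of annotated exon (vertical axis, log scale) of each gene, ordered by the median over 6 libraries (black line), with grey points for control and red for Bmal1;CKO libraries. E2f1, with a median of 1715, stands above the other genes in all libraries, and Ccne2 is the lowest by its median of 47.0.

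The genes that act on the same step were then considered as lists, each given by its counts. Of 19 regulators of cyclin E and CDK2 activity, 13 had a lower and 6 a higher mean log2 value in Bmal1;CKO. Their median log2 fold change was -0.25, and none passed the unadjusted threshold. The regulators with the smallest p were Cul3, the scaffold of a ligase for cyclin E, at -0.60 (unadjusted p = 0.0937, limma-trend), Cks1b, the cofactor of SKP2, at -0.67 and Skp1a, the adaptor of SCF ligases, at -0.59. Cdkn1b, which encodes p27, was at 0.51 (unadjusted p = 0.260, limma-trend) and Cdkn1a, which encodes p21, at -0.25. The 7 other E2F and DP factors had 3 lower and 4 higher mean log2 values with a median log2 fold change of 0.26. It became -0.26 without control library 1, the library with 13 reads of E2f6, and 0.14, 0.087 and -0.084 without control library 2, library 5 and library 6. E2f4, a repressor E2F, was at 0.34 and the atypical E2f7 at 0.61, neither past the threshold.

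Upstream of the step, 9 of 10 genes for D cyclins, CDK4, CDK6, RB and the INK4 inhibitors were tested. Of these, 1 was higher at the unadjusted threshold, beside 3.17% of all genes tested. That gene was Ccnd1, which encodes cyclin D1, with 6954, 4193 and 5411 normalized counts in control and 10294, 9748 and 7375 in Bmal1;CKO. Every mutant library was above every control, with a log2 fold change of 0.74 (standard error 0.28, unadjusted p = 0.0297, adjusted p = 0.883 from limma-trend). Rb1, the pocket protein RB itself, was at -0.95 and Ccnd2 at -0.33, and both had overlapping groups. The 7 subunits and partners of MuvB, the core of DREAM, had 3 lower and 4 higher mean log2 values, and none passed the threshold. Their median log2 fold change was 0.02 (-0.096 without library 6 to 0.15 without library 5). Rbbp4 was at -0.33, Lin54 at 0.79 and Lin37 at 0.31.

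Downstream, 30 E2F target genes of S phase had a median log2 fold change of -0.17, with 19 lower and 11 higher mean log2 values and 0 past the unadjusted threshold in limma-trend. That median was -0.10, -0.048 and -0.082 without control library 1, control library 3 and library 5. Prim1, the catalytic subunit of primase, had 786, 843 and 634 normalized counts in control and 294, 424 and 566 in Bmal1;CKO. It was the 1 gene of the 30 with groups that did not overlap, at -0.86 (unadjusted p = 0.0921, limma-trend). Over all genes tested, 4.54% were lower and 6.62% higher without overlap. Cdc6, which loads the MCM helicase, had 44.3, 205 and 423 in control and 467, 339 and 521 in Bmal1;CKO, with a log2 fold change of 1.46, and Mcm6 was at -0.52. Of 16 mitotic genes, 12 had a lower and 4 a higher mean log2 value, and 1 was lower at the unadjusted threshold, beside 1.75% of all genes tested. Their median log2 fold change was -0.21. That median was -0.063 without library 5, and -0.34 and -0.36 without control library 2 and library 4. Ccnb1, which encodes cyclin B1, had 1521, 888 and 839 in control and 553, 407 and 507 in Bmal1;CKO, at -1.10 (unadjusted p = 0.0305, adjusted p = 0.883 from limma-trend). Nusap1 (-0.92), Bub1 (-1.35) and Top2a (-0.86), which act on the spindle, its checkpoint and the chromosomes, were also lower in Bmal1;CKO without overlap. With Ccnb1 these were 4 of the 16, beside 4.54% of all genes tested.

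**Figure D4:**
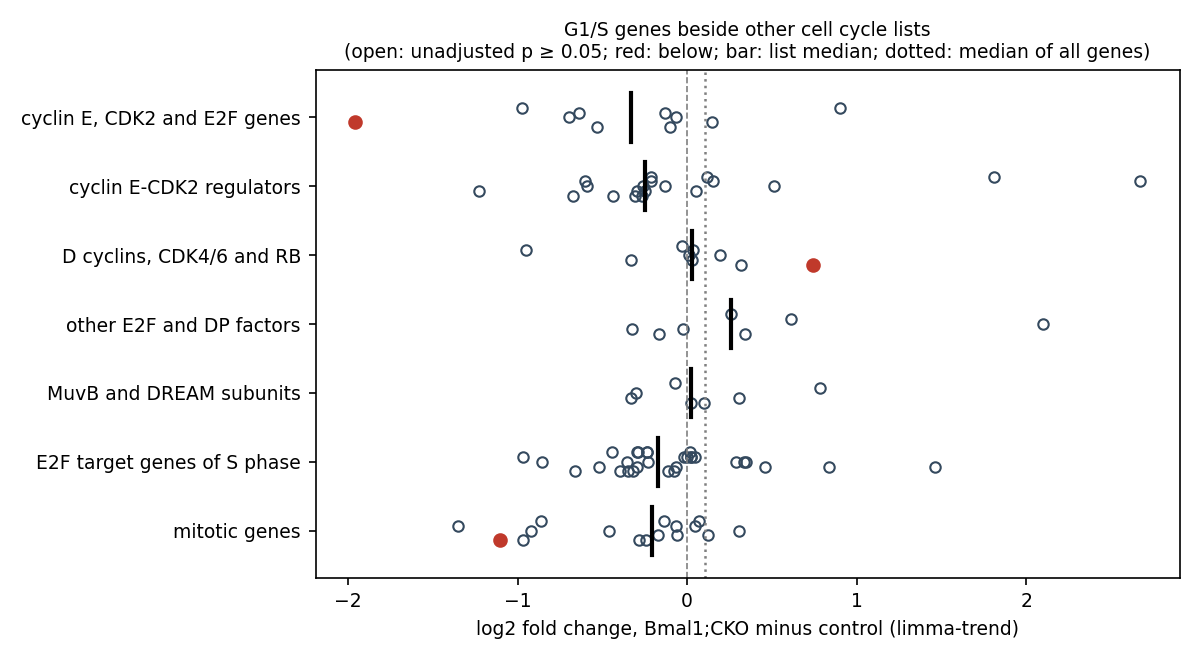
Log2 fold change, Bmal1;CKO minus control (horizontal axis, limma-trend), of each tested gene in 7 lists (rows), with red points for an unadjusted p below 0.05, open points for the rest, black bars for the list medians and a dotted line for the median of all genes, 0.11. Ccne2, Ccnd1 and Ccnb1 are the 3 red points, at -1.96, 0.74 and -1.10, and the medians of the lists run from -0.33 to 0.26.

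Markers of the cells that the gate could hold also differed between the libraries. Retinal progenitors, dividing cells of the early retina, express cell cycle genes. The summed normalized counts of their 8 markers ran from 10093 to 36950 in control and from 39458 to 45219 in Bmal1;CKO. Of the 8, 5 were higher in Bmal1;CKO without overlap, beside 6.62% of all genes tested. Among the controls this sum was lowest in library 1 and highest in library 3. The markers Fgf15 and Sfrp2 were at 0 in a library. The median log2 fold change of the 8 markers was 2.33 and became 0.735 without control library 1 and 1.21 in edgeR with TMM scaling. All 14 endothelial markers had a lower mean log2 value in Bmal1;CKO, as had 8889 of all 20459 genes tested. Their median of -0.50 was -0.16 without control library 1 or library 5 and -0.93 without library 6. Of 10 microglia and macrophage markers 9 had a higher mean log2 value, as had 11570 of all genes tested. Their median of 0.41 was 0.82 without control library 1, and 0.078, 0.215 and 0.155 without control library 2, control library 3 and library 4. The median of 8 pericyte and mural markers was 0.88 in limma-trend and -1.47 in edgeR with TMM scaling, and leaving out control library 1 or 3 gave -1.48 or 3.08. Of 9 rod markers 8 were lower (median -0.309, 0.0737 without library 4), as were 6 of 7 bipolar markers (median -0.556). All 6 cone and 6 tested Muller glia markers were higher (medians 0.64 and 0.426), as were 6 of 7 amacrine markers (0.458). Without control library 1 these 3 medians were -0.116, 0.0592 and -0.377. Ganglion cell, astrocyte and erythroid markers went in both directions. The part of these cells in the values of Ccne2, Cdk2, Rbl1 and E2f1 was not tested.

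The genes whose log2 values were most like those of Ccne2 over the 6 libraries, among 15610 genes with a mean of at least 100 normalized counts, included Tmx2, Rprm, Elmod2 and Matr3, with Pearson r from 0.992 to 0.998. Tmx2, the closest, had 1350, 1872 and 1513 normalized counts in control and 889, 1150 and 1264 in Bmal1;CKO, a narrower range in the same order of libraries. The genes most like the mean of the 10 standardised members were Arl8b, Rbm19, Gnas, Gm45422 and Dhodh (r from 0.975 to 0.992). That mean was 0.66, -0.46 and 0.54 in the control libraries and -0.47, -0.27 and -0.01 in the Bmal1;CKO libraries, with control library 2 among the mutants. With 6 libraries and so many genes, coefficients of this size are a description of likeness only.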

How the data were processed

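FACS-sorted VECs gave RNA for Smart v4 amplification and Nextera XT libraries. The authors trimmed the reads, aligned them with Bowtie to mm10 (GRCm38), counted them per gene with featureCounts and deposited a signal, namely each count over its library's DESeq2 size factor (normalized count). Multiplying by the recovered size factors gave whole reads for 100% of the values, within 0.1 read. The deposited fold changes, p-values and base means of the authors were not used. The numbers of the columns differ from those of the labels, so columns were used as replicates of their genotype.

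Tested genes had 10 or more reads in 3 or more libraries. The test was limma-trend on log2(normalized count + 1), two-sided, with genotype as the only term (R 4.3.3, limma 3.58.1). The added 1 narrows fold changes of genes low in all libraries, while a value near 0 in 1 library can widen them. E2f6 was thus at 2.10, although its mean in Bmal1;CKO was 1.10-fold that in control. Chek1 was at 1.81, although its mean was 169 in Bmal1;CKO and 223 in control. Recovered reads were tested with edgeR 4.0.16 and DESeq2 1.42.0 as alternatives, beside other pseudocounts and filters and each library left out in turn, and the scripts were tested on simulated data. Single values were compared by exact permutation (Python 3.11.15, scipy 1.17.1). Coordinates are those of the table, whose starts count from 0 and were raised by 1. Exon lengths are from GENCODE M21, and promoters from RefSeq.

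The members and lists were chosen with earlier results of these data known. Named genes are the 10 members, up to 3 genes of smallest p per list, and 5 genes most like Ccne2 or the mean of the members, of which 1 is not reported here. Other genes with their values (Cdkn1b, Cdkn1a, Top2a, Cdc25c, Chek1, Ints8, Aktip, Arntl and Xist) were named after their values were seen.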

Additional observations from a re-analysis of the deposited data

How the results depend on the processing

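The number of genes at FDR 0.05 was 0 in limma-trend and 67 in DESeq2's Wald test. It was 1 (Rpl29) both with genes of at least 1 read in total and with genes of at least 10 reads in every library, and 0 to 6 with 1 library left out. The 6, without control library 1, were Rpl29, Gm13394, Klk1b22, Xist, Zfp691 and Gm42743. Xist was at a log2 fold change of 7.73 there (adjusted p = 0.0463, limma-trend). Sex of the animals was not a term in any test, and its part was not tested. Unadjusted p under 0.05 was reached by 648 higher and 359 lower genes in limma-trend, 389 and 388 in edgeR with TMM scaling, 532 and 684 in DESeq2 and 682 and 314 in limma-voom, so the split of directions depends on the tool. The median of all genes was 0.11 in limma-trend and -0.03 in DESeq2 and in edgeR under either scaling. One member, Ccne2, was at an unadjusted p under 0.05 in the other 8 alternatives, and 0 to 1 members were with 1 library left out, with 0 without library 4 or library 5. Without control library 2 the 1 member was Cdk2, and without control library 3 it was E2f1. The difference in the Ccne2 to Ccne1 log2 ratio ran from -2.0 to -0.55 with 1 library left out.

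Of 140 log2 fold changes of members under 14 alternatives, 130 kept their sign. The 10 reversals all came from leaving out 1 library and concerned 5 members. Cdc25a became 0.242, 0.133, 0.0975 and 0.00811 without control library 1, control library 3, library 4 and library 5. E2f2 became 0.411 and 0.227 without control library 1 and library 5, E2f3 -0.263 without control library 2, Rbl2 0.0539 and 0.0876 without control library 3 and library 4, and Skp2 0.178 without library 4. At the other end of the same ranges were -0.57 for Cdc25a and -0.36 for Rbl2 without control library 2, -0.65 for E2f2 without control library 3, 0.37 for E2f3 without control library 1 and -1.63 for Skp2 without library 5. With 1 library left out, the spread is pooled over the remaining 5 libraries. No paired analysis was possible because the columns of the table do not carry the replicate numbers of the labels. Of the 60 member values, 2 rested on fewer than 100 reads, and how far depth limits the rest was not tested.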
